A study of Mus musculus with 24 samples.

Results

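The comparison sets 3 libraries of 3T9 mouse fibroblasts infected with MycER-HEA against 3 libraries of the same cells infected with MycER-RA, all kept for 4 h in OHT, out of 24 RNA-seq libraries in all. These 6 libraries were chosen by their labels alone, and the comparison covers the 12268 of 21671 genes that reached an RPKM of at least 1 in 3 or more of the 24 libraries. RPKM corrects read numbers for the length of a gene and the size of a library, which allows a rough comparison of levels between genes. The 3 libraries of cells infected with the empty vector (EV) and kept for 4 h in OHT served as a level to set beside both, and the 3 HEA and 3 RA libraries kept for 8 h in OHT as a second pair. 3T9 is an immortalised line of mouse fibroblasts, and all groups used here, EV included, were treated with OHT and grown in the same serum-containing medium. The cells are infected populations, and libraries of cells without OHT are not used here, so a difference between the infected populations that was there before OHT cannot be told apart from one that arose with it. Nothing in the labels says whether the numbered libraries of a group came from separate cultures, so the p-values speak only of the spread among these libraries, and that spread may be technical.

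Myc is a transcription factor that pairs with Max through a basic helix-loop-helix leucine zipper and binds DNA, with a preference for the E-box CACGTG. It is known for driving ribosome biogenesis, nucleotide synthesis and entry into the cell cycle, and for lowering genes of growth arrest. In MycER the protein is fused to the part of the oestrogen receptor that binds hormone, so that it stays idle until 4-hydroxytamoxifen (OHT) is added. In the study's published description, alanines in HEA replace residues that read the bases of the E-box, and alanines in RA replace arginines that touch the DNA backbone. The labels name the 2 forms without listing these changes. The question behind the series is what each kind of contact contributes to the control of genes by Myc.

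Esr1, the gene that shares its hormone-binding part with the constructs, had 12.5, 12 and 10.1 RPKM in HEA libraries and 11.7, 11.1 and 12.3 RPKM in RA libraries, against 0.385, 0.293 and 0.153 RPKM in EV libraries. HEA and RA libraries overlapped (log2 difference -0.02 ± 0.14 (SE), adjusted p = 0.911) and both lay above all EV libraries, as the labels have it. Myc stood at 68.2, 48.5 and 50.3 RPKM in HEA libraries, 57.6, 58.3 and 65.1 RPKM in RA libraries and 53.2, 62.4 and 56.0 RPKM in EV libraries, and the groups overlapped. The table does not split reads of the cells' own Myc from reads of the construct. Recovered depth was 10.7 to 11 M reads in HEA, 10.3 to 12.8 M in RA and 10.2 to 11.9 M in EV libraries, and libraries correlated at 0.972 to 0.983 within HEA, 0.986 to 0.989 within RA and 0.928 to 0.959 between HEA and RA. The median SD of a gene was 0.147 in HEA and 0.116 in RA on the log2 scale. Fibroblast markers summed to 753 to 819 RPKM in HEA and 704 to 772 RPKM in RA libraries, and 0 of 9 epithelial and 0 of 7 endothelial markers reached the level for testing. Skeletal muscle markers summed to 2.40 to 3.24 RPKM in HEA and 6.18 to 9.13 RPKM in RA libraries, nearly all of it Acta1, with Myod1 and Myog at 0. Adipocyte markers summed to 3.01 to 4.32 RPKM in HEA and 5.91 to 7.56 RPKM in RA libraries, and macrophage markers to 19.7 to 21.0 RPKM in HEA and 16.9 to 20.9 RPKM in RA libraries. Of 5 nuclear and small RNA transcripts read as a sign of RNA quality, 1 was higher and 0 lower in HEA. The part of these markers in the results was not tested. In bulk samples, fewer cells of a type and less RNA per cell cannot be told apart.

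HEA and RA cells differed broadly at 4 h. Of 12268 genes, 5674 passed an adjusted p of 0.05 (46.3%), with 2206 higher (18%) and 3468 lower (28.3%) in HEA than in RA cells. Most differences were small: 371 genes were higher by at least 2-fold (3.02%) and 261 lower by at least 2-fold (2.13%), and the median over all tested genes was -0.07 (log2). The 2-fold counts move with the scale, to 572 higher under voom and to 172 lower with a pseudocount of 1. In 5316 genes the call came with libraries of the groups that did not overlap (43.3%). Fold changes are HEA minus RA on the scale of log2(RPKM + 0.5), on which a gene of low RPKM shows less than its true ratio. Adjusted p-values come from one limma fit and cover every tested gene. The split between the directions depends on the scaling, with 2581 higher and 2881 lower when libraries were centred on their medians and 2849 higher and 2658 lower with voom on recovered reads. Directions of small differences are therefore relative to the scaling used.

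**Figure D1:**
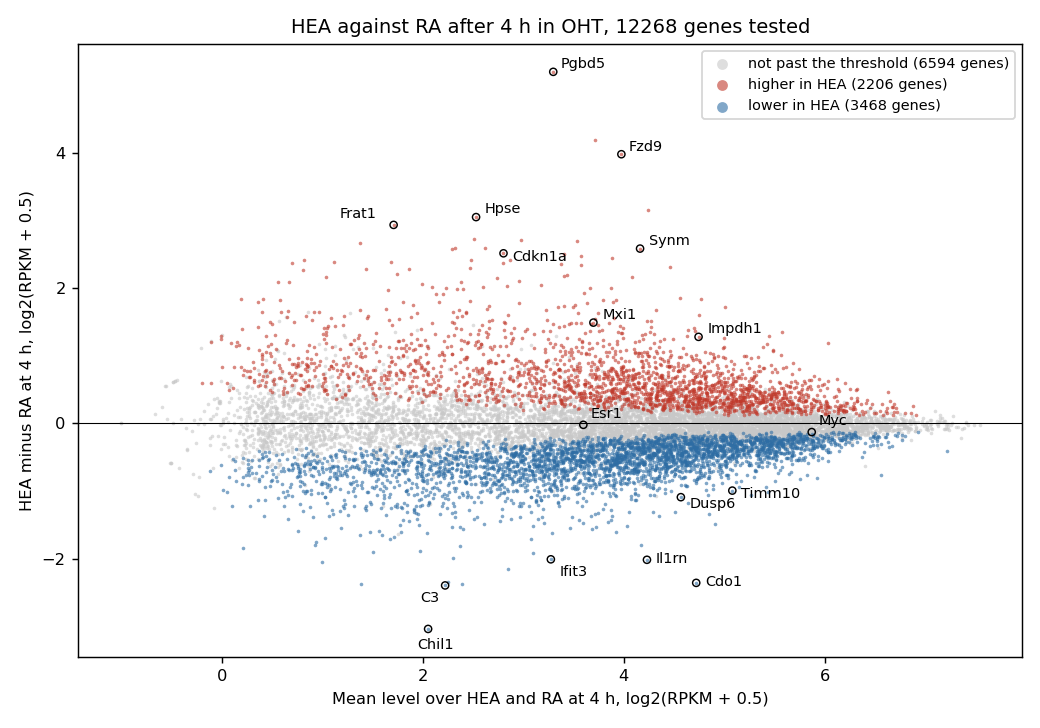
Difference between HEA and RA at 4 h (vertical axis, log2) against the mean level of each of 12268 tested genes (horizontal axis, log2), with 2206 genes higher in HEA in red, 3468 lower in blue and the rest in grey; circled genes are named in the text. The rises reach further from 0 than the falls, up to 5.20 for Pgbd5 and down to -3.04 for Chil1, while Esr1 and Myc lie close to 0.

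The 12 largest rises in HEA cells, taken by fold among genes called with groups that did not overlap, ran from genes all but unread in RA cells to genes of several RPKM. Pgbd5, which codes for a protein derived from a piggyBac transposase, had 18.2, 20.5 and 17.3 RPKM in HEA libraries, against 0.0277, 0 and 0.0337 RPKM in RA libraries. It was close to absent from RA cells, with 1722 reads in HEA against 2 reads in RA libraries, a ratio per library total of 883 (exact 95% interval 244 to 7299, counting error only). Fzd9, a Wnt receptor of the Frizzled family, had 25.0, 38.4 and 24.1 RPKM in HEA libraries, against 1.59, 1.48 and 0.993 RPKM in RA libraries (log2 difference 3.98 ± 0.18, adjusted p = 2.08e-12). No HEA library came near the RA level. Frat1, a GSK3-binding protein that promotes Wnt signalling, had 3.95, 6.52 and 5.39 RPKM in HEA libraries, against 0.329, 0.0746 and 0.364 RPKM in RA libraries (log2 difference 2.94 ± 0.20, adjusted p = 1.22e-09). Its RA level rests on 11, 2 and 10 reads. Hpse, the heparanase that cuts heparan sulfate chains, had 8.25, 11.3 and 9.85 RPKM in HEA libraries, against 1.19, 0.588 and 0.520 RPKM in RA libraries (log2 difference 3.05 ± 0.18, adjusted p = 1.25e-10). Synm, which codes for the intermediate filament protein synemin, had 29.9, 30.1 and 30.4 RPKM in HEA libraries, against 5.42, 3.94 and 4.59 RPKM in RA libraries (log2 difference 2.58 ± 0.11, adjusted p = 1.23e-12). Its 3 HEA libraries hardly differed among themselves.

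Cdkn1a, the CDK inhibitor gene that p53 activates and Myc is known to lower, had 14.3, 8.03 and 11.7 RPKM in HEA libraries, against 1.69, 0.792 and 2.41 RPKM in RA libraries (log2 difference 2.51 ± 0.26, adjusted p = 2.64e-07). Replicate 2 was the lowest in both groups, and the groups did not overlap. Mns1, a structural protein of meiotic nuclei and cilia, had 21.4, 14.3 and 23.3 RPKM in HEA libraries, against 2.38, 2.32 and 2.95 RPKM in RA libraries (log2 difference 2.70 ± 0.15, adjusted p = 6.02e-11). Foxo6, a forkhead transcription factor, had 4.84, 4.52 and 2.66 RPKM in HEA libraries, against 0.247, 0.0771 and 0.264 RPKM in RA libraries (log2 difference 2.67 ± 0.21, adjusted p = 8.36e-09). The other 4 of the 12 were Trim7, an E3 ubiquitin ligase, Engase, a glycosidase that frees sugar chains from proteins, the FERM-domain gene Epb4.1l4b and the semaphorin Sema4g. These 4 averaged 7.89 to 13.2 RPKM in HEA and 0.901 to 1.60 RPKM in RA libraries, with log2 differences of 2.58 to 2.72. With voom on recovered reads the log2 difference was 4.55 for Frat1 and 4.40 for Foxo6, more than 1.5 times as large. Among all 371 genes higher by at least 2-fold, replicate 2 was the highest HEA library in 223 and replicate 1 the highest RA library in 211, and 391 genes passed that mark without both.

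In all 12 of these genes the EV mean lay nearer to the RA mean, and no EV library fell within the range of the HEA libraries. Pgbd5 had 0.0895, 0 and 0 RPKM in EV libraries, Fzd9 1.56, 1.85 and 1.46 RPKM, Synm 4.75, 6.10 and 4.67 RPKM and Cdkn1a 2.09, 2.82 and 2.55 RPKM. Of the 12, Mns1 alone was called in RA against EV, lower in RA by a log2 difference of -0.63 (adjusted p = 0.0211).

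The 12 largest falls in HEA cells were smaller than the rises and included genes of secreted and complement proteins. Chil1, a secreted chitinase-like protein, had 0.483, 0.277 and 0.431 RPKM in HEA libraries, against 8.10, 6.69 and 5.92 RPKM in RA libraries (log2 difference -3.04 ± 0.27, adjusted p = 3.09e-08). The HEA values rest on 9, 5 and 8 reads. C3, the central complement component, had 1.08, 0.620 and 1.1 RPKM in HEA libraries, against 11.4, 5.05 and 5.77 RPKM in RA libraries (log2 difference -2.40 ± 0.33, adjusted p = 7.36e-06). Replicate 1 of RA was the highest. Slpi, an inhibitor of leukocyte proteases, had 0.353, 0.0913 and 0.621 RPKM in HEA libraries, against 5.03, 3.32 and 3.25 RPKM in RA libraries (log2 difference -2.38 ± 0.32, adjusted p = 6.27e-06). C1s1, a protease of the first complement complex, had 0.273, 1.79 and 1.80 RPKM in HEA libraries, against 7.70, 4.44 and 4.56 RPKM in RA libraries (log2 difference -1.89 ± 0.40, adjusted p = 0.000645). The groups did not overlap in any of these genes, which the naming rule asks for.

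Cdo1, the cysteine dioxygenase that breaks down cysteine, had 2.90, 7.28 and 19.9 RPKM in HEA libraries, against 50.1, 37.5 and 37.6 RPKM in RA libraries (log2 difference -2.36 ± 0.46, adjusted p = 0.000308). Il1rn, the interleukin-1 receptor antagonist, had 2.53, 5.57 and 17.8 RPKM in HEA libraries, against 32.0, 28.2 and 23.5 RPKM in RA libraries (log2 difference -2.02 ± 0.47, adjusted p = 0.00167). In both genes replicate 3 of HEA stood well above the other HEA libraries and below all RA libraries. Replicate 3 was the highest HEA library in 180 of the 261 genes lower by at least 2-fold, and without it 383 genes passed that mark. Fos, the immediate early partner of Jun, had 0.952, 1.39 and 2.22 RPKM in HEA libraries, against 8.74, 7.50 and 5.82 RPKM in RA libraries (log2 difference -1.99 ± 0.34, adjusted p = 8.15e-05). Lmod1, an actin nucleator of smooth muscle, had 0.506, 0.594 and 1.04 RPKM in HEA libraries, against 4.34, 3.76 and 3.77 RPKM in RA libraries (log2 difference -1.90 ± 0.24, adjusted p = 2.59e-06). Its HEA libraries all lay far below its RA libraries. Aldh3a1, an aldehyde dehydrogenase, had 0.787, 0.108 and 0.0527 RPKM in HEA libraries, against 3.03, 3.16 and 1.87 RPKM in RA libraries, and its log2 difference was -2.05 ± 0.32 (adjusted p = 3.05e-05), or -3.61 with voom. Islr, a secreted protein with leucine-rich repeats, and Abi3bp, a matrix protein, complete the falls with log2 differences of -2.35 ± 0.45 and -1.92 ± 0.37.

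The EV mean lay between those of HEA and RA for the falls. In RPKM it was nearer to the RA mean in 3 of 12 genes, whereas on the log2 scale it was nearer to RA in 12 of 12. At least 1 EV library fell within the range of the HEA libraries in 4 of 12. Chil1 had 5.49, 4.11 and 2.50 RPKM in EV libraries, Cdo1 33.8, 18.1 and 22.7 RPKM and Fos 6.0, 1.96 and 3.75 RPKM. RA was above EV in mean for each of the 12, by log2 differences of 0.21 to 1.07 that did not pass the threshold, and HEA was below EV by log2 differences of -1.04 to -2.29, of which Il1rn (adjusted p = 0.0595) did not pass. Both comparisons share the EV libraries.

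**Figure D2:**
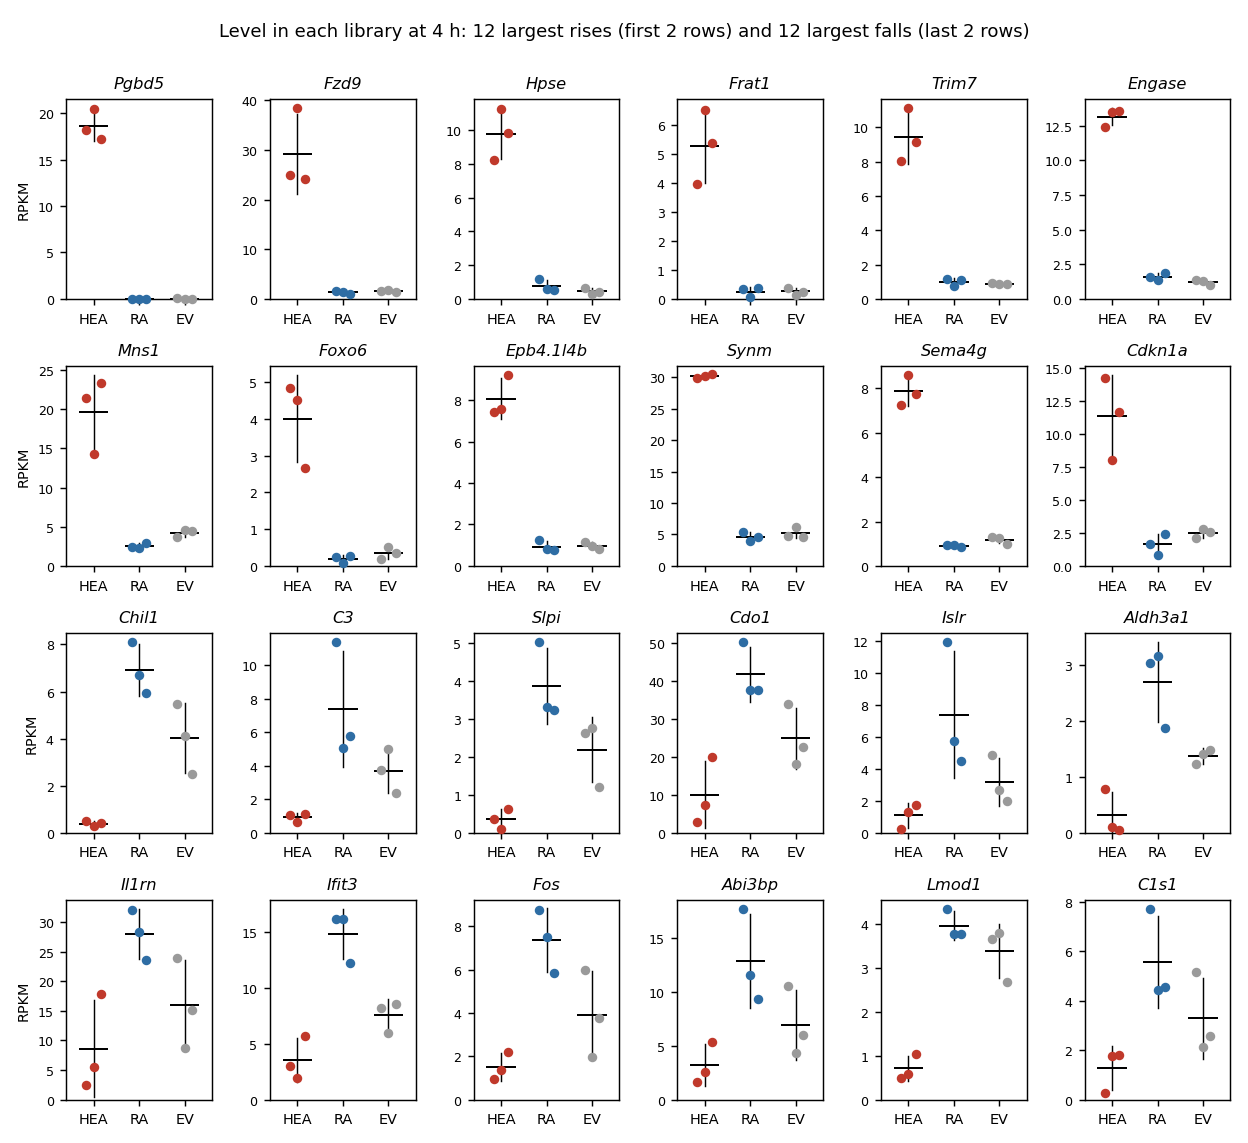
RPKM of each library (points, replicates 1 to 3 from left to right) at 4 h for the 12 largest rises and the 12 largest falls, in HEA (red), RA (blue) and EV (grey) cells, with the mean as a bar and the SD as a line; each panel starts at 0. In the rises RA and EV libraries lie together near the bottom, whereas in the falls EV libraries mostly lie between HEA and RA libraries.

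Promoters are shown for 3 of these genes because they hold the E-box, and for Pgbd5 because it differed most. The windows run from 250 bases before to 50 after the start of the gene in RefSeq, build GRCm38.p6, and are written 5′ to 3′ on the strand of the gene, with CACGTG and CACGCG in capitals.
Fzd9, chr5:135250998-135251297, minus strand: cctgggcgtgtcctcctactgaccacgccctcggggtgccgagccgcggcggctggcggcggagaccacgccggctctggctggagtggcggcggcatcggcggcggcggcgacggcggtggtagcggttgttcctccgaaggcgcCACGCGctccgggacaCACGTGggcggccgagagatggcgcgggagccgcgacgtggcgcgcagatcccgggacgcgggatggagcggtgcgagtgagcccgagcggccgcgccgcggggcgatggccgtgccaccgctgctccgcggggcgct
Synm, chr7:67759693-67759992, minus strand: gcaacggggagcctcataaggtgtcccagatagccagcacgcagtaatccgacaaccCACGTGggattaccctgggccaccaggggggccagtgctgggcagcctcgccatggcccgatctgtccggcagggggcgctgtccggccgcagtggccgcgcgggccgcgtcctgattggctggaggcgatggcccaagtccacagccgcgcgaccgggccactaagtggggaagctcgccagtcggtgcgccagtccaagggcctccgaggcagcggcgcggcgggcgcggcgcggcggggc
Slpi, chr2:164356458-164356757, minus strand: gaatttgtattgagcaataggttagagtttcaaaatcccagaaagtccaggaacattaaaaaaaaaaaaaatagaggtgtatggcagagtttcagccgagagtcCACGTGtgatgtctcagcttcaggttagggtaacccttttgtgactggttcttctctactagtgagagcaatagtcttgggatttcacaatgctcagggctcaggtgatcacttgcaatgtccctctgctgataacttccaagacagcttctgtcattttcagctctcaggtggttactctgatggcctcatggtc
Pgbd5, chr8:124433887-124434186, minus strand: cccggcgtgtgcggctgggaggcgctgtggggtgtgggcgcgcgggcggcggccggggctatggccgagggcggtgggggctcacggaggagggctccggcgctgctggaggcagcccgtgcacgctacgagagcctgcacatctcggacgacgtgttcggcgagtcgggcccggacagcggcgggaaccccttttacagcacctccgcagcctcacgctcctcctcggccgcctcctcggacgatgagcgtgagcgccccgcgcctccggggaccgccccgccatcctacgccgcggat
Of the 24 genes, 20 had a window in the RefSeq table, 25 windows in all, and Foxo6, Cdo1, Aldh3a1 and Abi3bp had none. CACGTG stood in the windows of Fzd9 and Synm, which were higher in HEA, and of Slpi, which was lower. Over all 32851 windows of the table, 7.15% held CACGTG and 9.27% held CACGCG on either strand. Other short sequences close to CACGTG were searched on both strands as well: AACGTT (in 1.98% of all windows), AACGTG (4.68%) and CATGTG (14.2%). In 13 of the 20 genes, Pgbd5 among them, no window held any of the 5 sequences. A match describes the letters of the window and is no evidence of binding. Shares among the higher and the lower genes are not given, because fewer than 80% of the higher genes (79.1%) and of all tested genes (77.8%) had a window.

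Ribosome biogenesis genes, like all tested genes, were more often lower than higher in HEA cells. Of 44 such genes, 19 were lower (43.2%, against 28.3% over all tested genes) and 3 higher (6.82%, against 18%). Their median was -0.12 against -0.07 over all tested genes. Under voom 12 were lower (27.3%) and 5 higher, beside 2658 lower and 2849 higher of all 12268 genes. Bysl, needed to mature the small subunit, had 19.2, 13.7 and 18.5 RPKM in HEA libraries, against 27.6, 26.3 and 28.5 RPKM in RA libraries (log2 difference -0.68 ± 0.095, adjusted p = 1.03e-05). Dkc1, the pseudouridine synthase of small nucleolar particles, had 36.6, 26.0 and 37.6 RPKM in HEA libraries, against 48.9, 53.4 and 52.0 RPKM in RA libraries (log2 difference -0.63 ± 0.10, adjusted p = 4.82e-05). Replicate 2 of HEA was the lowest in both. Noc4l, a factor of the small subunit that went the other way, averaged 48.9 ± 2.7 RPKM in HEA and 39.9 ± 1.7 RPKM in RA libraries (SD, n = 3 each; log2 difference 0.29 ± 0.059, adjusted p = 0.000488). Of 39 ribosomal protein genes 3 were lower and 0 higher, a share called of 7.69% against 46.3% over all genes. Rpl30 averaged 102 ± 1.5 RPKM in HEA and 115 ± 9.2 RPKM in RA libraries, and Rps9 averaged 67.9 ± 1.5 RPKM in HEA and 75.3 ± 4.7 RPKM in RA libraries. Neither call held under median centring (adjusted p = 0.11 and 0.243) or without replicate 2 of RA (0.0547 and 0.0627), and the lower count of the list ran from 0 without replicate 2 of RA to 9 without replicate 1 of RA. Ribosomal protein genes share reads with near-identical copies, and 36 of the 39 stood above 0.5 reads per base. The highest value of any gene in any library was 233 RPKM. Whether high levels were held down in the processing, which would narrow differences in these genes, was not tested.

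Of 31 genes of nucleotide and one-carbon supply, 16 were lower (51.6%) and 4 higher (12.9%), with a median of -0.18. Over all tested genes the shares were 28.3% lower and 18% higher. The list had 11 lower and 5 higher under voom, and 13 and 5 under median centring. Its lower count ran from 12 without replicate 2 of HEA to 18 without replicate 1 of RA. Mthfd1, a folate enzyme of the one-carbon cycle, had 35.6, 29.3 and 33.2 RPKM in HEA libraries, against 46.5, 47.7 and 46.8 RPKM in RA libraries (log2 difference -0.52 ± 0.073, adjusted p = 1.05e-05). Impdh1 went the other way and was the furthest from 0 in the list. This IMP dehydrogenase, which commits IMP to guanine nucleotides, had 41.5, 33.9 and 36.8 RPKM in HEA libraries, against 15.5, 12.7 and 17.4 RPKM in RA libraries (log2 difference 1.28 ± 0.13, adjusted p = 3.32e-07), and 18.8, 26.5 and 21.4 RPKM in EV libraries. Polyamine genes were lower in 4 of 11 (36.4%) and higher in 1 (9.09%), or 2 under median centring. Oaz2, an antizyme that inhibits ornithine decarboxylase, averaged 36.7 ± 5.5 RPKM in HEA and 57.6 ± 4.6 RPKM in RA libraries (log2 difference -0.65 ± 0.11, adjusted p = 0.000108). Amd1, which makes the aminopropyl donor of polyamines, averaged 60.8 ± 4.8 RPKM in HEA and 75.7 ± 5.8 RPKM in RA libraries, and Azin1, an antizyme inhibitor, 75.7 ± 3.3 RPKM in HEA and 64.0 ± 4.1 RPKM in RA libraries. The call of Azin1 was lost without replicate 1 of RA (adjusted p = 0.0647).

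Of 30 genes of mitochondrial biogenesis, 7 were lower (23.3%, against 28.3% over all tested genes) and 0 higher. Timm10, a chaperone of protein import into the inner membrane, had 20.5, 21.5 and 24.3 RPKM in HEA libraries, against 42.5, 47.8 and 43.3 RPKM in RA libraries (log2 difference -1.0 ± 0.10, adjusted p = 2.26e-07). Timm22, the channel of the same route, averaged 21.5 ± 1.6 RPKM in HEA, 28.3 ± 1.8 RPKM in RA and 22.0 ± 2.3 RPKM in EV libraries. In Timm22 the EV mean lay next to that of HEA, whereas Timm10 had 48.7, 51.1 and 48.0 RPKM in EV libraries, above RA. The direction of the list was not stable, with 2 lower and 4 higher under voom, 4 lower and 2 higher under median centring, and 4 lower without replicate 1 of HEA or without replicate 2 of RA.

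Glycolysis genes were higher in 6 of 20 (30%, against 18% over all tested genes) and lower in 1 (5%, against 28.3%), with a median of 0.02. Pfkm, the muscle form of phosphofructokinase, had 35.3, 32.4 and 38.1 RPKM in HEA libraries, against 22.6, 18.6 and 20.4 RPKM in RA libraries (log2 difference 0.77 ± 0.098, adjusted p = 3.31e-06). Gpi1, which turns glucose phosphate into fructose phosphate, had 58.6, 49.9 and 51.3 RPKM in HEA libraries, against 36.8, 38.5 and 39.5 RPKM in RA libraries (log2 difference 0.47 ± 0.057, adjusted p = 2.04e-06). Aldoc, an aldolase of low level in these cells, was the member that fell, to 1.67 ± 0.54 RPKM in HEA, against 3.03 ± 0.43 RPKM in RA libraries. Genes of the ATF4 response and amino acid supply were higher in 6 of 24 (25%, against 18% over all tested genes) and lower in 4 (16.7%, against 28.3%). Slc1a4, a transporter of neutral amino acids, was higher by 0.59 ± 0.072 (adjusted p = 2.05e-06). Wars, the tryptophanyl-tRNA synthetase, was lower by a log2 difference of -0.50 ± 0.072 (adjusted p = 1.30e-05). The higher count was 3 without replicate 2 of HEA and without replicate 1 or replicate 2 of RA, and the lower count was 2 under voom, under median centring and without replicate 2 of RA. Chaperone genes split as 3 higher (13.6%) and 4 lower (18.2%) of 22, both under the shares over all tested genes. This turned to 5 higher and 3 lower under voom and to 10 lower without replicate 1 of RA. Hspa1b, a heat shock protein whose near-identical copy Hspa1a can share its reads, averaged 3.33 ± 0.41 RPKM in HEA and 6.15 ± 0.39 RPKM in RA libraries, and Fkbp4, an Hsp90 co-chaperone, 84.1 ± 0.64 RPKM in HEA and 71.1 ± 6.3 RPKM in RA libraries.

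Sterol and fatty acid genes were lower in 9 of 26 (34.6%) and higher in 4 (15.4%) at 4 h, near the 28.3% lower and 18% higher over all tested genes. Fdft1, the squalene synthase, had 12.3, 11.2 and 12.5 RPKM in HEA libraries, against 16.9, 18.9 and 18.1 RPKM in RA libraries (log2 difference -0.57 ± 0.099, adjusted p = 0.000104). Dhcr7, the last enzyme of cholesterol synthesis, went the other way with 17.9, 19.2 and 19.7 RPKM in HEA libraries, against 8.49, 6.71 and 8.15 RPKM in RA libraries (log2 difference 1.23 ± 0.11, adjusted p = 2.26e-08). At 8 h, 0 of the 26 were lower and 3 were higher. Fdft1 then averaged 20.8 RPKM in HEA and 21.8 RPKM in RA libraries, yet the change between the times did not pass the threshold (adjusted p = 0.412), nor did that of any other member. The higher count at 4 h was 2 without replicate 1 or 2 of HEA and without replicate 1 or 3 of RA.

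**Figure D3:**
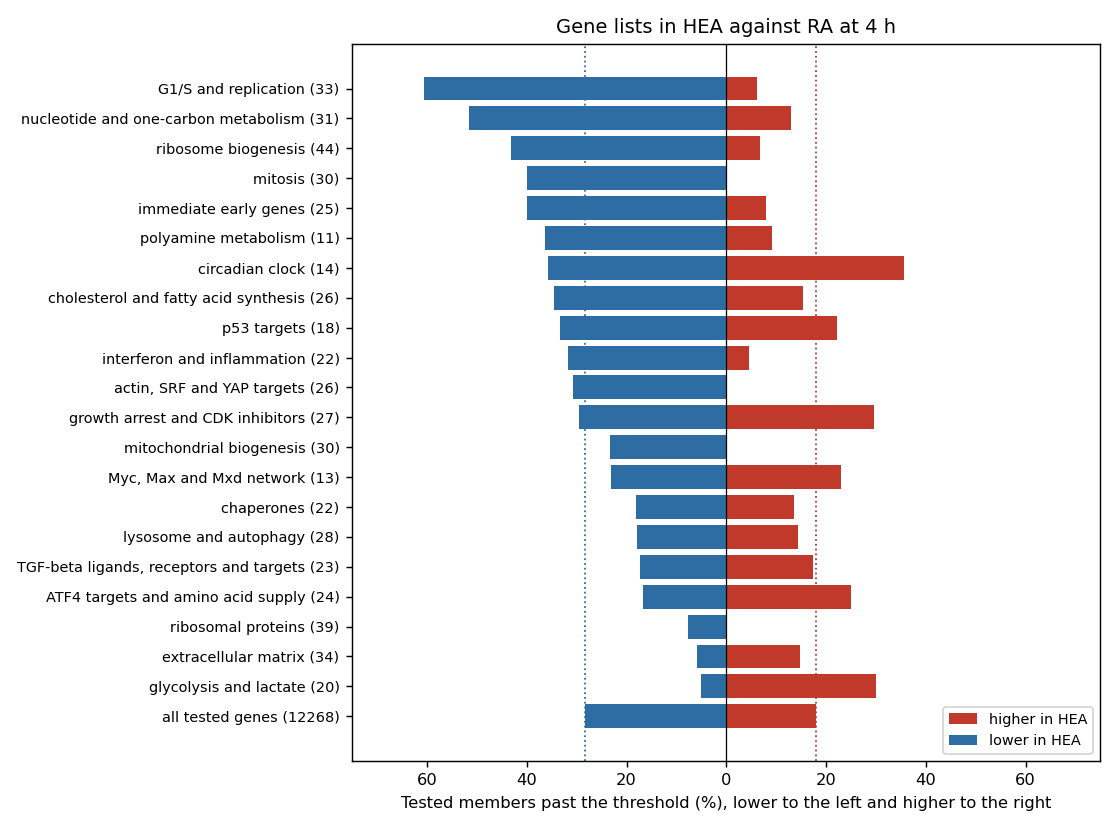
Percent of the tested members of each of 21 gene lists that were higher (red, to the right) or lower (blue, to the left) in HEA than in RA cells at 4 h, with the number tested in brackets; dotted lines mark the shares over all tested genes, 18% higher and 28.3% lower. Lower members are most frequent in the replication and nucleotide lists and least frequent in the glycolysis, matrix and ribosomal protein lists.

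Of 33 genes of cell cycle entry and DNA replication, 20 were lower (60.6%) and 2 higher (6.06%), with a median of -0.23. Over all tested genes the shares were 28.3% lower and 18% higher. Cdk2, the kinase that acts with cyclin E at entry into S phase, had 25.4, 23.2 and 26.2 RPKM in HEA libraries, against 43.2, 49.0 and 45.0 RPKM in RA libraries (log2 difference -0.86 ± 0.067, adjusted p = 6.10e-09). EV libraries stood with RA, at 48.0, 43.4 and 45.4 RPKM. Orc1, the subunit that loads the origin recognition complex on DNA, went the other way with 27.4, 24.1 and 24 RPKM in HEA libraries, against 17.0, 13.5 and 15.2 RPKM in RA libraries (log2 difference 0.71 ± 0.089, adjusted p = 2.69e-06). Under voom the list had 11 lower and 5 higher, and the higher count was 4 without replicate 2 of HEA and 1 without replicate 1 of HEA. Mitosis genes were lower in 12 of 30 (40%, against 28.3% over all tested genes) and higher in 0, by small steps. Birc5, the survivin subunit of the chromosomal passenger complex, averaged 25.9 ± 1.2 RPKM in HEA and 32.2 ± 0.61 RPKM in RA libraries (log2 difference -0.31 ± 0.056, adjusted p = 0.000163), and Prc1, which bundles midzone microtubules, 26.7 ± 2.0 RPKM in HEA and 32.9 ± 1.6 RPKM in RA libraries. The mitosis list turned to 6 lower and 5 higher under voom, and its lower count was 5 without replicate 1 of HEA and 7 without replicate 2 of RA.

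Genes of growth arrest had no common direction, 8 higher (29.6%) and 8 lower (29.6%) of 27, against 18% and 28.3% over all tested genes. Beside Cdkn1a, Ndrg1, a gene of differentiation and stress that Myc is known to lower, had 22.6, 17.2 and 20.3 RPKM in HEA libraries, against 11.4, 10.6 and 14.6 RPKM in RA libraries (log2 difference 0.70 ± 0.11, adjusted p = 2.34e-05). The lower count was 5 under median centring and under voom, 4 without replicate 1 of HEA and 5 without replicate 2 of RA. Cdkn1a is counted with growth arrest and not with the targets of p53. Of 18 p53 targets, 4 were higher (22.2%, against 18% over all tested genes) and 6 lower (33.3%, against 28.3%), or 5 and 5 under voom. The 2 members described next had the smallest p-values and are among the 4 higher, against the majority of the called members. Plk3, a stress-responsive kinase, had 22.3, 19.4 and 16.7 RPKM in HEA libraries, against 13.5, 12.4 and 12.4 RPKM in RA libraries (log2 difference 0.58 ± 0.13, adjusted p = 0.000835). Perp, a membrane protein of desmosomes and cell death, averaged 97.2 ± 7.0 RPKM in HEA and 79.5 ± 8.7 RPKM in RA libraries (log2 difference 0.29 ± 0.073, adjusted p = 0.0028), a call lost when replicate 2 of HEA and replicate 1 of RA were both left out (adjusted p = 0.103).

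Immediate early genes, which serum and growth factors induce through ERK, were lower in 10 of 25 (40%) and higher in 2 (8%). Over all tested genes 28.3% were lower and 18% higher, and the median of the list was -0.20. Dusp6, the phosphatase that ERK induces against itself, had 17.0, 12.8 and 14.1 RPKM in HEA libraries, against 29.0, 36.7 and 29.7 RPKM in RA libraries (log2 difference -1.09 ± 0.13, adjusted p = 2.09e-06). Egr2, a zinc finger transcription factor, had 1.34, 1.33 and 1.69 RPKM in HEA libraries, against 4.61, 4.11 and 5.81 RPKM in RA libraries (log2 difference -1.45 ± 0.24, adjusted p = 7.60e-05). Jund, a Jun family member that went the other way, had 40.0, 42.0 and 29.2 RPKM in HEA libraries, against 20.3, 26.0 and 24.2 RPKM in RA libraries (log2 difference 0.64 ± 0.19, adjusted p = 0.00929). Its EV libraries, at 34.4, 36.6 and 23.2 RPKM, spanned both groups, and the call was lost when replicate 2 of HEA and replicate 1 of RA were both left out (adjusted p = 0.146). The lower count was 6 under voom and without replicate 2 or replicate 3 of HEA or replicate 2 of RA, and Fos is counted in it.

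Interferon and inflammation genes were lower in 7 of 22 and higher in 1, or 3 under voom. The lower share of 31.8% was near the 28.3% over all tested genes. Ifit3, an interferon-induced antiviral gene among the largest falls, had 2.99, 1.97 and 5.69 RPKM in HEA libraries, against 16.1, 16.1 and 12.2 RPKM in RA libraries (log2 difference -2.01 ± 0.31, adjusted p = 2.47e-05), and 8.18, 5.97 and 8.56 RPKM in EV libraries. Ddx58, the RNA sensor RIG-I, had 3.62, 3.95 and 3.71 RPKM in HEA libraries, against 9.06, 8.85 and 7.81 RPKM in RA libraries (log2 difference -1.09 ± 0.11, adjusted p = 2.59e-07), and 5.81, 4.38 and 4.64 RPKM in EV libraries. EV lay between the 2 forms in both genes. Irf1, an interferon regulatory factor, was the exception, with 30.3 ± 0.64 RPKM in HEA, 22.6 ± 1.3 RPKM in RA and 21.2 ± 0.43 RPKM in EV libraries. Set against EV, HEA had 7 of the 22 higher and 5 lower, whereas RA had 6 higher and 0 lower. Both counts rest on the same EV libraries. Over all tested genes, 17.7% were higher and 25.5% lower in HEA against EV, and 2.58% and 2.73% in RA against EV. The 652 calls of RA against EV over all genes fell to 96 with only the 4 h libraries in the fit.

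Actin genes and targets of SRF and YAP were lower in 8 of 26 and higher in 0, and 13 were lower without replicate 1 of RA. The lower share of 30.8% was near the 28.3% over all tested genes. Actg2, a smooth muscle actin, had 3.90, 4.62 and 4.68 RPKM in HEA libraries, against 12, 13.9 and 13.3 RPKM in RA libraries (log2 difference -1.47 ± 0.18, adjusted p = 2.47e-06), with EV at 12.7, 13.4 and 13.7 RPKM. Acta2, the actin of smooth muscle and of activated fibroblasts, averaged 62.4 ± 2.8 RPKM in HEA and 79.4 ± 5.8 RPKM in RA libraries (log2 difference -0.34 ± 0.053, adjusted p = 3.23e-05). Matrix genes were higher in 5 of 34 and lower in 2, under the shares over all genes, and 10 were higher under voom. Adamts7, a protease of matrix proteins, had 5.88, 8.54 and 5.40 RPKM in HEA libraries, against 2.31, 2.51 and 3.53 RPKM in RA libraries (log2 difference 1.11 ± 0.20, adjusted p = 0.00013), while EV stood with HEA at 7.31, 8.33 and 6.43 RPKM. Adamts1, of the same family, averaged 88.3 ± 5.9 RPKM in HEA and 70.2 ± 3.4 RPKM in RA libraries, and Mmp3, the stromelysin, 2.08 ± 0.65 RPKM in HEA and 5.91 ± 0.89 RPKM in RA libraries. Genes of the TGF-beta family were higher in 4 of 23 (17.4%, against 18% over all tested genes) and lower in 4 (17.4%, against 28.3%), or 6 and 3 under voom. Id1, a BMP-induced inhibitor of helix-loop-helix factors, had 48.9, 42.8 and 43.5 RPKM in HEA libraries, against 64.3, 75.2 and 65.3 RPKM in RA libraries (log2 difference -0.59 ± 0.12, adjusted p = 0.00046), and Skil, a Smad co-repressor, averaged 40.4 ± 0.58 RPKM in HEA and 33.2 ± 1.7 RPKM in RA libraries.

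Within the network of Myc and Max partners, 3 of 13 genes were higher (23.1%) and 3 lower (23.1%). These shares were near the 18% higher and 28.3% lower over all tested genes. The counts were 3 higher and 1 lower under median centring, and 4 and 1 under voom. Mxi1, a Mad family repressor that competes with Myc for Max, had 20.8, 15.7 and 19.5 RPKM in HEA libraries, against 6.04, 5.88 and 6.97 RPKM in RA libraries (log2 difference 1.49 ± 0.12, adjusted p = 6.81e-09). All HEA libraries lay far above RA. EV libraries, at 8.58, 7.28 and 9.59 RPKM, lay between the 2 forms and nearer to RA (RA minus EV -0.40, adjusted p = 0.0501 in limma). Mlx, a Max-like partner of the glucose-responsive Mondo factors, averaged 16.1 ± 2.9 RPKM in HEA and 25.5 ± 1.5 RPKM in RA libraries (log2 difference -0.66 ± 0.14, adjusted p = 0.00075). The lower count was 1 without replicate 1 of HEA.

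Clock genes had the largest share called of the 21 lists, 71.4% of 14, with 5 higher (35.7%) and 5 lower (35.7%). Over all tested genes 46.3% were called, 18% higher and 28.3% lower. Cry1, a repressor of the clock, had 18.4, 15.6 and 18.9 RPKM in HEA libraries, against 11.3, 9.37 and 9.50 RPKM in RA libraries (log2 difference 0.78 ± 0.10, adjusted p = 5.12e-06). Per3, a period gene of the same feedback loop, had 2.06, 2.67 and 2.43 RPKM in HEA libraries, against 5.83, 5.29 and 4.21 RPKM in RA libraries (log2 difference -0.95 ± 0.16, adjusted p = 6.08e-05). Lysosome and autophagy genes were higher in 4 of 28 (14.3%) and lower in 5 (17.9%), under the shares over all tested genes, or 4 and 4 under voom. Tfeb, the transcription factor that drives lysosomal genes, had 1.42, 1.19 and 1.55 RPKM in HEA libraries, against 4.86, 3.81 and 5.10 RPKM in RA libraries (log2 difference -1.43 ± 0.14, adjusted p = 1.89e-07). Gla, the lysosomal alpha-galactosidase, went the other way with 20.4, 29.0 and 25.1 RPKM in HEA libraries, against 11.7, 14.3 and 10.6 RPKM in RA libraries (log2 difference 0.99 ± 0.13, adjusted p = 2.89e-06). At 8 h 11 of the 28 were lower and 5 higher, while over all tested genes 27% were lower and 17.9% higher.

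**Figure D4:**
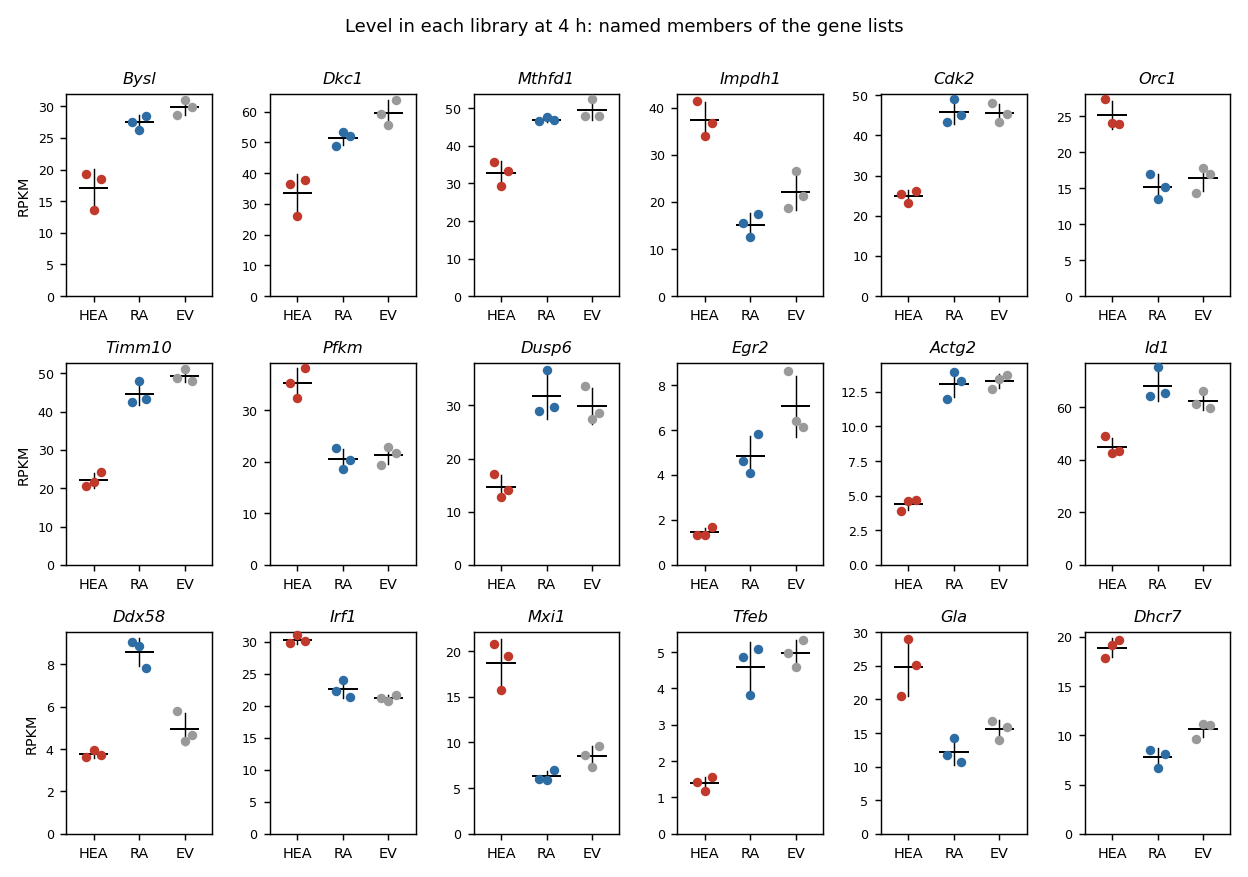
RPKM of each library (points, replicates 1 to 3 from left to right) at 4 h for 18 named members of the gene lists in HEA (red), RA (blue) and EV (grey) cells, with the mean as a bar and the SD as a line; each panel starts at 0. HEA libraries of Cdk2, Timm10, Dusp6, Actg2 and Tfeb lie below both other groups and those of Mxi1, Orc1, Pfkm and Impdh1 above both, while EV stands apart from RA in Ddx58.

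Most differences called at 4 h had the same sign at 8 h, in other libraries. Both comparisons came from the same fit and share its estimate of the spread. Deviations of same-numbered libraries at 4 h and 8 h correlated at -0.00492, -0.234 and 0.403 in HEA (replicates 1 to 3). In RA they correlated at 0.101, -0.0707 and 0.157. Whether the libraries of the 2 times came from separate cultures was not tested. Of the 5674 genes called at 4 h, 5600 had the same sign at 8 h and 4287 were also called with it (75.6%). None of them, 0 in all, were called with the opposite sign. Over all tested genes 83.5% had the same sign at both times, and 44.1% were also called with it at 8 h. Among genes not called at 4 h, 70.5% had the same sign. The 8 h comparison by itself called 5513 genes (44.9%), 2195 higher (17.9%) and 3318 lower (27%). Of the 371 genes at least 2-fold higher at 4 h, 343 were called higher at 8 h, and of the 261 at least 2-fold lower, 238 were called lower. Differences at the 2 times had a Pearson r of 0.86 across 12268 genes, which are not independent replicates. Pgbd5 averaged 25.7 RPKM in HEA and 0.128 RPKM in RA libraries at 8 h, Fzd9 22.8 RPKM in HEA and 1.4 RPKM in RA, Cdkn1a 17.9 RPKM in HEA and 2.64 RPKM in RA, and Chil1 0.347 RPKM in HEA and 5.43 RPKM in RA libraries.

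The test of the change between the times called 4 genes (0.0326%), all with a lower difference at 8 h. L3mbtl3, a reader of methylated lysines, was higher in HEA at 4 h (1.01 ± 0.097) and close to RA at 8 h (0.02 ± 0.097), a change of -0.98 (adjusted p = 0.00678). At 8 h it averaged 5.59 RPKM in HEA and 5.48 RPKM in RA libraries. Bend3, a repressor with BEN domains, stood at 19.8 RPKM in HEA and 19.9 RPKM in RA libraries at 4 h and at 14.0 RPKM in HEA and 22.0 RPKM in RA libraries at 8 h (change -0.63, adjusted p = 0.0155). Steap1, a membrane protein of the metalloreductase family, was lower in HEA at both times and further at 8 h, by log2 differences of -0.62 and -1.28 (change -0.66, adjusted p = 0.0169). Abcb1b, a multidrug efflux pump, likewise had differences of -0.80 at 4 h and -1.42 at 8 h (change -0.61, adjusted p = 0.0244). Among genes that did not pass, the growth factor gene Gdf11 had a change of -0.52 (adjusted p = 0.0669) and Cry1 one of -0.71 (adjusted p = 0.0863), the second with a difference of 0.07 ± 0.10 at 8 h. Leaving out single libraries gave 1 to 7 calls, and with only the 4 groups compared in the fit there were 0, so this short list depends on the spread borrowed from the other libraries.

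**Figure D5:**
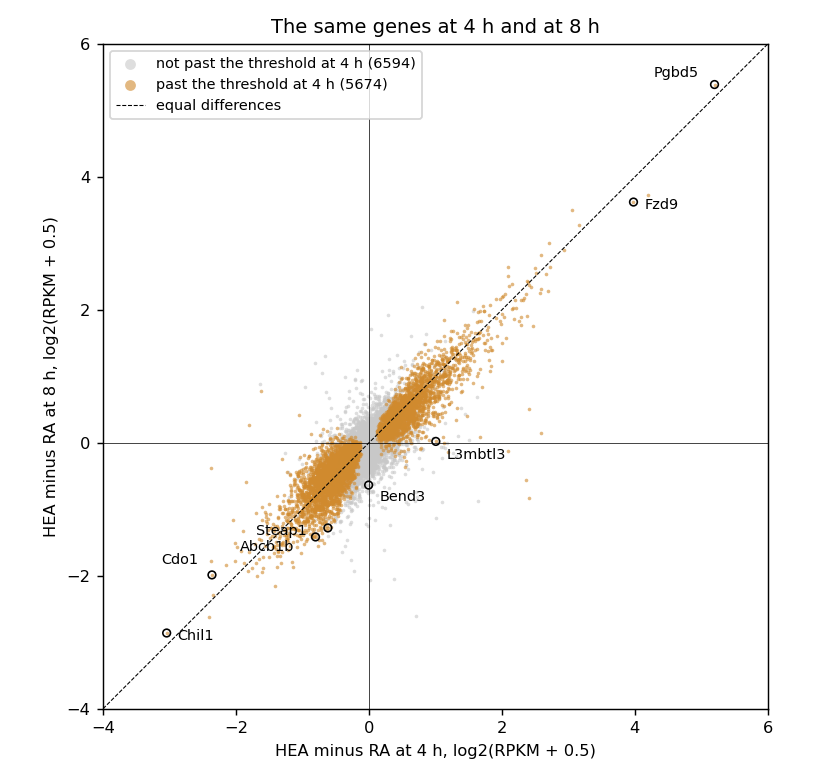
Difference between HEA and RA (log2) at 8 h against that at 4 h for 12268 tested genes, with genes called at 4 h in orange and the rest in grey; the dashed line marks equal differences. Of the 5674 genes called at 4 h, 5600 have the same sign at both times, beside 83.5% of all tested genes. L3mbtl3 (1.01 at 4 h, 0.02 at 8 h) and Bend3, which was not called at 4 h, lie below the line, as do Steap1 and Abcb1b.

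Set against EV at 4 h, HEA differed in 5303 genes (43.2%), 2176 higher and 3127 lower, and RA in 652 genes (5.31%), 317 higher and 335 lower. The RA count depends on the libraries that share the estimate of the spread, with 96 calls from the 4 h libraries alone, 3 from RA and EV alone, and 158 to 557 when a library of the 2 groups was left out. Cdk2 is one gene in which RA and EV lay together, at 25.0 ± 1.5 RPKM in HEA, 45.7 ± 2.9 RPKM in RA and 45.6 ± 2.3 RPKM in EV libraries. Impdh1 had both forms away from EV, with HEA higher than EV by 0.75 (adjusted p = 0.000164) and RA lower than EV by a log2 difference of -0.53 (adjusted p = 0.027). Adamts7 differed from EV in RA (log2 difference -1.27, adjusted p = 0.00133), while its difference in HEA was -0.16 (adjusted p = 0.528). These comparisons share EV libraries and, with the comparison of HEA and RA, the libraries of each form.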

How the data were processed

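The authors deposited a table of RPKM per gene and library, whose header records no step behind it. A second deposited table, of fold changes and p-values of each form against EV, was not used. Per the submitters' processing notes, the tools were TopHat2 2.0.8, TopHat, SAMtools, featureCounts 1.4.5-p1 and DESeq2, on the build mm9, named with no role or order. Strand setting, handling of duplicates and annotation were not given in the sources used here. Per the labels, libraries came from total RNA with a stranded kit.

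RPKM were taken as log2(RPKM + 0.5) for the 12268 genes with at least 1 RPKM in 3 or more libraries, and 8 group means were fitted over 24 libraries with limma 3.58.1 (trend, R 4.3.3), with Benjamini-Hochberg adjustment over all tested genes and a two-sided threshold of 0.05. With 3 libraries a group, the fit had 16 residual degrees of freedom. The steps were tested on simulated data first. The RPKM steps gave whole reads, within 0.01 of a read, for 100% of 362673 values above 0, so reads were recovered for voom as an alternative, which called 5507 genes in HEA against RA at 4 h. Library depth of 9.82 to 12.8 M reads puts the level of 3 reads at 0.235 to 0.306 CPM, and that level and the interval of the read ratio cover counting error only.

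Named genes are Esr1 and Myc, the 12 largest rises and 12 largest falls called with groups that do not overlap and a mean of at least 1 RPKM (predicted, microRNA and multi-copy genes passed over), up to 3 members of each list, and the smallest p-values of the change between times, of which not every gene is reported here. The members and lists were chosen with earlier results of these data known. Alternatives were other pseudocounts, filters, scalings, a replicate block, smaller sets of libraries, and leaving out each library. Replicate numbers were not used to pair HEA with RA in the main fit. Other steps ran in Python 3.11.15 with pandas 2.3.3, numpy 2.4.6, matplotlib 3.10.9 and scipy 1.17.1. Promoters are from RefSeq (GRCm38.p6), a build other than that of the files, and were joined by symbol only.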

Additional observations from a re-analysis of the deposited data

Results flagged for a closer look

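For 4 genes the difference between HEA and RA changed between 4 h and 8 h by the test of that change in limma. The change, as the 8 h difference minus the 4 h difference on the log2 scale, was -0.98 in L3mbtl3, -0.63 in Bend3, -0.66 in Steap1 and -0.61 in Abcb1b. At 4 h, L3mbtl3 averaged 8.46 RPKM in HEA and 3.96 RPKM in RA libraries, and at 8 h 5.59 RPKM in HEA and 5.48 RPKM in RA libraries. Steap1 averaged 30.0 RPKM in HEA and 46.2 RPKM in RA libraries at 4 h, and 18.3 RPKM in HEA and 45.2 RPKM in RA libraries at 8 h. Abcb1b averaged 17.0 RPKM in HEA and 30.0 RPKM in RA libraries at 4 h, and 9.28 RPKM in HEA and 25.5 RPKM in RA libraries at 8 h. With only the groups compared in the fit, none of the 4 passed (adjusted p = 0.093 for L3mbtl3 and Bend3, 0.165 for Steap1 and 0.219 for Abcb1b).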

How the results depend on the processing

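The counts of called genes stayed within 1.5 times of those reported in HEA against RA at 4 h, in HEA against RA at 8 h and in HEA against EV under every alternative tried; leaving out 1 library gave 4774 to 5677, 4507 to 5074 and 4323 to 5304 calls. The change between times gave 12 calls with no filter, 11 with quantile scaling, 7 with voom, 0 with only the groups compared and 1 to 7 without 1 library. RA against EV gave 96 calls from the 4 h libraries alone, 3 with only the groups compared and 158 to 557 without 1 library. The cause was not tested. Of 75 named genes called at 4 h none changed sign and 69 kept the call under every setting; Rpl30, Rps9, Perp, Jund and Azin1 were among those that lost it under at least 1. Setting aside genes above 0.5 reads per base, and HEA replicate 2 with RA replicate 1, were alternatives chosen after seeing the data. Same-numbered HEA and RA libraries at 4 h had correlations of 0.00285 to 0.168 in their deviations, and 1 of 3 numbers correlated best with its own. For HEA and EV libraries these were -0.221, 0.329 and 0.315 (replicates 1 to 3). With 3 libraries a group, such values cannot tell whether same-numbered libraries share a culture or a batch. With the replicate block 5547 genes were called. At this depth, genes of few reads limit the precision: their fold changes depend on the pseudocount.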

Other observations

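Many Wnt pathway genes were higher in HEA than in RA cells at 4 h. In a list of 38 such genes, drawn up after values had been seen and so given without a test, 20 were higher and 4 lower with a median log2 difference of 0.43, against 18% higher and 28.3% lower over all tested genes. Beside Fzd9 and Frat1, the Frizzled receptor gene Fzd3 averaged 19.0 ± 1.4 RPKM in HEA and 7.09 ± 0.60 RPKM in RA libraries (SD, n = 3 each). The GSK3-binding gene Frat2 averaged 7.02 ± 0.93 RPKM in HEA and 1.38 ± 0.33 RPKM in RA libraries, and the secreted Wnt-binding gene Sfrp2 averaged 8.87 ± 1.9 RPKM in HEA and 1.26 ± 0.36 RPKM in RA libraries. Rnf43, a ubiquitin ligase that removes Wnt receptors, went the other way with 1.56 ± 0.31 RPKM in HEA and 4.33 ± 0.67 RPKM in RA libraries. At 8 h, 15 of the 38 were higher and 7 lower.

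A list of 12 complement and acute phase genes, drawn up in the same way and holding Chil1, C3, Slpi, Il1rn and C1s1 for their values, had 10 lower (83.3%) and 1 higher (8.33%). Over all tested genes 28.3% were lower and 18% higher. The genes held for their values are among the 10, so part of that count was fixed by the choice. Under voom and under median centring the list had 8 lower. Of its other members, the complement protease gene C1ra averaged 4.56 ± 2.1 RPKM in HEA and 11.3 ± 2.2 RPKM in RA libraries, while C1qtnf1 averaged 19.7 ± 3.9 RPKM in HEA and 10.8 ± 1.9 RPKM in RA libraries. Another list, also drawn up after values had been seen, held 24 targets of Nrf2, the regulator of the oxidative stress response. Of these, 9 were lower (37.5%, against 28.3% over all tested genes) and 3 higher (12.5%, against 18%). Under voom and under median centring 7 of the 24 were lower (29.2%), beside 2658 and 2881 of all 12268 genes. The quinone reductase gene Nqo1 averaged 7.98 ± 3.5 RPKM in HEA and 27.2 ± 4.4 RPKM in RA libraries, and the haem oxygenase gene Hmox1 averaged 16.1 ± 3.9 RPKM in HEA and 40.6 ± 2.8 RPKM in RA libraries. Replicate 2 was the lowest HEA library in both. Gclc, the catalytic subunit of the enzyme that starts glutathione synthesis, was higher instead, with 63.0 ± 0.56 RPKM in HEA and 31.0 ± 0.47 RPKM in RA libraries.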
